A study of Mus musculus with 6 samples.

Results

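The genes described here are those whose RNA stood much lower in hippocampal neurons after 3 h of KCl than in untreated neurons. A gene was taken when its mean in the untreated libraries was at least 2 cRPKM (reads scaled to the effective length of the gene and to library size, as the authors computed it) and its higher 3 h library held at most 0.55 times the value of its lower untreated library. Of 21553 genes with values, 11363 reached 2 cRPKM in untreated neurons and 170 passed both limits. Genes whose symbols mark zinc finger proteins, ion channels, glutamate and GABA receptors and a few other families were then left out, which removed 48 genes, 35 of them with zinc finger symbols, and left 122 members. One of the 48, Gramd2, is no receptor and was removed by the prefix Gr alone. The members were chosen on the comparison of 3 h with untreated, so their fall at 3 h is a description and carries no test.

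Primary hippocampal neurons had been taken from C57bl/6 mouse embryos at stage E16.5 and kept for 10 days in culture. Cultures were sampled untreated, after 0.5 h in 55 mM KCl, or after 3 h in it, and each of these 3 groups had 2 libraries. No genotype other than the strain, and no agent other than KCl, is given for any group. The replicates are called biological duplicates with no word on whether embryos, cultures or dishes were separate, and the p-values below rest on the spread of these libraries alone.

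Raised extracellular KCl depolarises neurons, opens voltage-gated calcium channels and drives calcium into the cell. Calcium signals reach the nucleus, where factors such as CREB switch on immediate early genes first and later response genes after them. The RNA of a gene can also fall, at a pace set by how fast its transcription slows and how fast its existing transcripts are degraded. The deposited values are RNA levels and do not separate these.

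Library totals ran from 98882007 to 141865913 counts. The 14 pan-neuronal markers summed to 3104 and 2934 cRPKM in untreated libraries, 3024 and 2777 at 0.5 h, and 2697 and 1941 at 3 h. The 14 excitatory neuron markers summed to 824 and 927 cRPKM in untreated libraries, 791 and 855 at 0.5 h, and 766 and 583 at 3 h. The 14 interneuron markers summed to 608 and 896 cRPKM in untreated libraries, 594 and 857 at 0.5 h, and 484 and 602 at 3 h. The median log2 difference between 3 h and untreated was −0.26 over the pan-neuronal, −0.24 over the excitatory and −0.45 over the interneuron markers. The 10 astrocyte markers summed to 1070 and 1570 cRPKM in untreated libraries, 1075 and 1709 at 0.5 h, and 1107 and 2233 at 3 h. Gfap, the astrocyte filament gene, stood at 22.4 to 24.6 cRPKM in the 3 libraries numbered 1 and at 307 to 475 in those numbered 2. The progenitor markers, summed over 10 genes, held 215 and 185 cRPKM in untreated libraries, 204 and 183 at 0.5 h, and 432 and 554 at 3 h. Of this, the filament gene Vim held 102 and 84.9 cRPKM in untreated libraries, 103 and 93.1 at 0.5 h, and 307 and 460 at 3 h. Oligodendrocyte lineage markers (10 genes) summed to 306 and 219 cRPKM untreated, 267 and 212 at 0.5 h, and 315 and 241 at 3 h. Fibroblast markers (10 genes) held 51.2 and 43.7 cRPKM untreated, 52.2 and 44.8 at 0.5 h, and 53.7 and 48.6 at 3 h. Their median log2 differences between 3 h and untreated were 0.22 and 0.44, and those of the astrocyte and progenitor markers 0.38 and 0.27. Microglial and endothelial markers summed to at most 1.53 and 4.92 cRPKM in any library, with Cx3cr1, Tmem119, Cdh5 and Tek among those under 0.1. No cell type marker was among the members, but the rule leaves out the symbols of several: Hes1, Hes5, Tubb3, Neurod2, Neurod6 and Zbtb20. Of these, the progenitor marker Hes5 passed both value limits and was left out by its symbol. It held 12.43 and 15.92 cRPKM in untreated libraries, 2.98 and 2.50 at 0.5 h, and 6.67 and 1.70 at 3 h.

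Of the 122 members, 118 were protein-coding genes, 1 (Gm9776) was a noncoding RNA transcribed from a bidirectional promoter, and 3 had no entry in the annotation and no symbol. Members without a symbol could not be screened by symbol. Most members had ample reads: 119 had at least 100 counts in each untreated library, with a median of 2383 and a minimum of 370 untreated counts. Of the other 3, Xlr3c rested on 1 read in each untreated library and 0 in the remaining 4, over an effective length of 1 base. Xlr3c is one of several near-identical genes on the X chromosome, and its value is uncertain. ENSMUSG00000091640 had 9 and 7 untreated counts, and ENSMUSG00000090756 had 54 and 44. Medians below are over the 119 members with at least 100 untreated counts unless stated.

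The upstream sequences of a few members are shown because these genes recur below: Dact2 and Amer3 had the deepest falls of the signalling genes, Sstr4 the deepest of the receptors, and Pnpla3, among members with ample reads, the lowest 0.5 h level relative to untreated. Each is the 300 bases from 250 before to 50 after the annotated RefSeq start, in build GRCm38.p6 and in the direction of transcription. Capitals mark TGACG (the core of the CREB site, whose full palindrome is TGACGTCA), GGGCGG (the GC box bound by Sp factors) and CCAAT, each on either strand.
Dact2, chr17:14203782-14204081, minus strand: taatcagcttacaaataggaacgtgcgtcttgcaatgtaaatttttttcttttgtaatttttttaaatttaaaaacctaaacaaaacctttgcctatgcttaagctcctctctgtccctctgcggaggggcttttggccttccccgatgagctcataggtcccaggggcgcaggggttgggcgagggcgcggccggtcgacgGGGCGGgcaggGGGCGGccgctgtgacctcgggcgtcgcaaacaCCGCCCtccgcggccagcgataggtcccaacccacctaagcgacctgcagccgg
Amer3, chr1:34579443-34579742, plus strand: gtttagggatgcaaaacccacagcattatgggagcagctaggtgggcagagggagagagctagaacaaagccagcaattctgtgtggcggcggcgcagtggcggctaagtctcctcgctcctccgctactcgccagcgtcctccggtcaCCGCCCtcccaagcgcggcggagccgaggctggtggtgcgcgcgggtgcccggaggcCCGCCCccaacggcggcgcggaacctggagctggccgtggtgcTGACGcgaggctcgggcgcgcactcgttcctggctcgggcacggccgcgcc
Sstr4, chr2:148395127-148395426, plus strand: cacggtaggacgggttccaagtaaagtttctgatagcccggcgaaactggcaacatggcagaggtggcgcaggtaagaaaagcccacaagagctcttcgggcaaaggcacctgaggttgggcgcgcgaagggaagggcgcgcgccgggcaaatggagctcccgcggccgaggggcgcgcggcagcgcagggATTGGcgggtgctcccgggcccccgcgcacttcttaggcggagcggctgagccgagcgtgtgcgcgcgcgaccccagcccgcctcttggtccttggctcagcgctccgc
Pnpla3, chr15:84167566-84167865, plus strand: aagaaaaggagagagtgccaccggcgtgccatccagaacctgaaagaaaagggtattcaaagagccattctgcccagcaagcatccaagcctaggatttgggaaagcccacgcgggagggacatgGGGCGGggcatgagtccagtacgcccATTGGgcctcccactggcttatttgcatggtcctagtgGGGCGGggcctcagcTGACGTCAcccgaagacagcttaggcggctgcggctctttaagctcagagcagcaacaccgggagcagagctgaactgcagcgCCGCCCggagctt

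Over the 119 members, the mean at 3 h was 43.4% of the untreated mean at the median, with quartiles of 38.3% and 47.2% and a range from 24.6% to 53.2%. Over all 11363 genes at 2 cRPKM or more the median was 95.5%, with quartiles of 78.6% and 115%. Counting all 122, 9 members stood under 30% of the untreated level, 33 between 30% and 40%, 71 between 40% and 50% and 9 above 50%. Those under 30% include Xlr3c, ENSMUSG00000091640 and ENSMUSG00000090756, which had few counts. The members just inside the limit were Pigw, Cd47, Hook1, Col19a1 and Slitrk5, whose higher 3 h library held 0.544 to 0.549 of the lower untreated one. Just outside stood Vmac, Etl4, Lrrc61 and 2 genes without a symbol, at 0.551 to 0.553. In bulk RNA, fewer cells of a type and less RNA per cell cannot be told apart. The marker sums that moved with 3 h are given above, and their part in the result was not tested. Within replicate numbers, the median 3 h level was 43.3% of untreated among the libraries numbered 1 and 43.7% among those numbered 2. The rule held each member's ratio within a number to 0.55 or less, so nothing is read from this likeness.

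EdgeR's quasi-likelihood test took 120 of the 122 members, and called all 120 lower at 3 h than in untreated neurons at a Benjamini-Hochberg adjusted p under 0.05. Over all 15895 genes tested, 6.84% were called lower and 8.71% higher in that comparison. Since the rule used it, nothing is read from that count. Xlr3c and ENSMUSG00000091640 had too few counts to be tested. Without untreated replicate 1 or untreated replicate 2, 12 and 3 members were called. Those fits have a lone untreated library and called 16 and 4 genes lower over all genes.

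**Figure D1:**
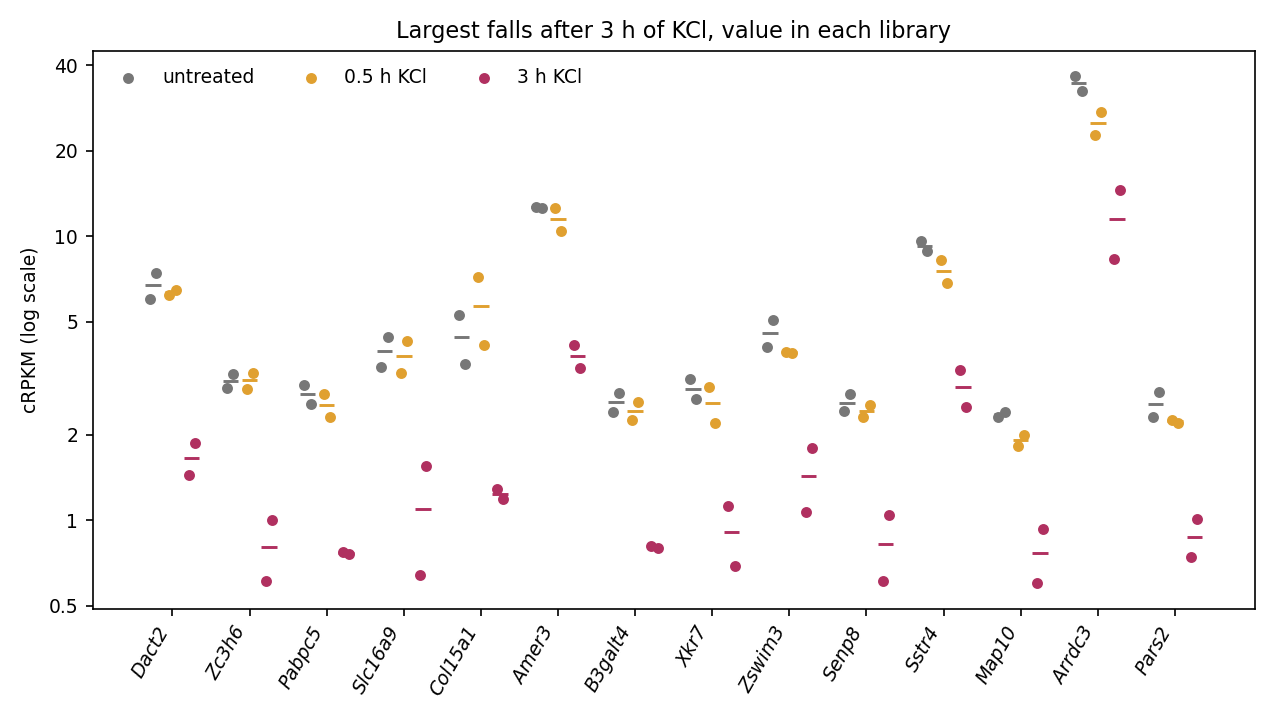
Level in each library (dots, cRPKM on a log scale) and group mean (lines) of the named members with the deepest falls, in order of the ratio of 3 h to untreated. Both 3 h libraries lay below both untreated and both 0.5 h libraries for each gene shown, Arrdc3 being the most abundant at 36.59 and 32.46 cRPKM in untreated neurons.

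The deepest fall among members with ample reads was that of Dact2, which encodes a Dishevelled-binding modulator of Wnt signalling. It stood at 6.03 and 7.44 cRPKM in untreated libraries, 6.21 and 6.46 at 0.5 h, and 1.44 and 1.87 at 3 h. Its 0.5 h values lay within the untreated range, and both 3 h values lay far below every earlier one. The 3 h mean was 24.6% of untreated, a log2 change of −1.97 ± 0.16 (SE of the edgeR fit).

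Amer3, whose product belongs to a family that recruits the tumour suppressor APC to the membrane, stood at 12.69 and 12.59 cRPKM in untreated libraries. It held 12.56 and 10.41 at 0.5 h, and 4.14 and 3.43 at 3 h. The 0.5 h libraries were both under the untreated ones, 1 of them by little, and the 3 h libraries were at 29.9% of them. Wnt7a, a Wnt ligand, held 10.68 and 11.11 cRPKM in untreated libraries, 10.93 and 11.59 at 0.5 h, and 4.73 and 4.83 at 3 h. Its groups at 3 h and before were tight and far apart.

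The other members in Wnt, Notch and growth factor signalling made up 9 with these 3, at 24.6% to 48.6% of untreated (median 43.9%). Nrarp, a target and feedback inhibitor of Notch signalling, stood at 6.79 and 6.03 cRPKM in untreated libraries, 7.72 and 7.25 at 0.5 h, and 2.93 and 1.51 at 3 h. It was above the untreated libraries at 0.5 h and below them at 3 h. Jag2, a Notch ligand, was at 47.4% of untreated at 3 h. Fgf18, a fibroblast growth factor, was at 38%. Gfra2, the neurturin co-receptor, was at 45.5%, and Gdf10, a TGF-beta superfamily ligand, at 46.8%. Frs3, an adaptor of FGF and neurotrophin receptors, was at 48.6%.

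Wnt pathway genes as a list were called in both directions. Leaving out an untreated library, a 0.5 h library or 3 h replicate 2 reduced the calls over all genes. Leaving out 3 h replicate 1 raised them. Counts of lists and relatives with 1 library left out, here and below, carry that change over all genes. Of 77 Wnt pathway genes tested, 6 (7.79%) were called lower at 3 h and 11 (14.3%) higher, against 6.84% and 8.71% of all genes. Dact2 and Wnt7a were among the 6. Leaving out these 2 members, 4 of 75 (5.33%) were lower. With the replicate block 17 were lower and 18 higher, while that fit called 2955 genes lower and 2963 higher over all genes, 18.6% each. The receptor gene Fzd5 held 2.47 ± 0.594 cRPKM at 3 h and 0.47 ± 0.099 in untreated neurons (SD, n = 2 each), a log2 change of 2.44 ± 0.27 (edgeR, adjusted p = 0.00848). Lgr5, a receptor for R-spondins, held 2.45 ± 0.552 cRPKM at 3 h and 0.765 ± 0.007 untreated (log2 change 1.74 ± 0.22, edgeR adjusted p = 0.0108). Neither was called without untreated replicate 1 or untreated replicate 2, and the list then had 1 and 0 genes called lower. Without 3 h replicate 1 it had 15 lower, and without 0.5 h replicate 1 or 0.5 h replicate 2 it had 3.

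Among members that encode G protein-coupled receptors, levels at 3 h were 31.9% to 43.2% of untreated (7 genes, median 38.1%). Sstr4, a somatostatin receptor coupled to inhibitory G proteins, stood at 9.63 and 8.83 cRPKM in untreated libraries, 8.21 and 6.85 at 0.5 h, and 3.38 and 2.51 at 3 h. Its 3 groups did not overlap, and each later group was lower. Adra2c, an inhibitory noradrenaline receptor, held 5.34 and 6.13 cRPKM in untreated libraries, 4.66 and 5.62 at 0.5 h, and 2.08 and 1.94 at 3 h. At 0.5 h it overlapped the untreated range. Oprl1, the nociceptin receptor, held 14.02 and 12.73 cRPKM in untreated libraries, 13.61 and 11.93 at 0.5 h, and 5.13 and 5.06 at 3 h.

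Htr6, a serotonin receptor that raises cAMP, held 3.94 and 4.37 cRPKM in untreated libraries, 3.97 and 3.81 at 0.5 h, and 1.79 and 1.80 at 3 h. The remaining 3 receptors are orphans. Gpr12 held 12.46 and 12.77 cRPKM in untreated libraries, 11.8 and 12.11 at 0.5 h, and 5.38 and 5.43 at 3 h. Gpr45 and Gpr61 were at 37.9% and 41.0% of untreated at 3 h, from untreated means below 5 cRPKM. Receptors for inhibitory and stimulatory transmitter signals were thus both among the members.

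Of 91 receptors for transmitters and modulators tested, 14 (15.4%) were called lower and 8 (8.79%) higher at 3 h, against 6.84% and 8.71% of all genes. Leaving out the 4 members of that list, 10 of 87 (11.5%) were lower. Htr4, another serotonin receptor that raises cAMP, held 0.555 ± 0.106 cRPKM at 3 h and 1.86 ± 0.233 untreated (SD, n = 2 each), under the floor of 2 that members had to reach. Its log2 change was −1.70 ± 0.18 (edgeR, adjusted p = 0.00761). In the same list the prostaglandin receptor Ptger4 and the lysophosphatidic acid receptor Lpar4 rose, by 3.76 ± 0.42 and 2.06 ± 0.25 on the log2 scale (edgeR, adjusted p = 0.00848 and 0.0102). With the replicate block 38 receptors of the list were called lower and 18 higher, against 18.6% of all genes in each direction. None was called without untreated replicate 1 or untreated replicate 2, and 9 were lower without either of the 0.5 h libraries. Of 82 orphan and adhesion receptors, 8 (9.76%) were called lower and 11 (13.4%) higher, and without the 3 members 5 of 79 (6.33%) were lower, near the 6.84% of all genes. With the replicate block 20 were lower and 18 higher. That count of lower calls was 0 without either untreated library, 2 without either 0.5 h library, 18 without 3 h replicate 1 and 3 without 3 h replicate 2.

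Genes of glycan synthesis formed another group, with 7 members at 30.9% to 47.6% of untreated. B3galt4, a galactosyltransferase that makes the ganglioside GM1, stood at 2.40 and 2.81 cRPKM in untreated libraries, 2.26 and 2.60 at 0.5 h, and 0.81 and 0.80 at 3 h. The 3 h libraries agree closely, though on only 173 and 120 counts, and the 0.5 h values overlap the untreated ones. Chst12, a chondroitin sulfotransferase, held 7.17 and 6.30 cRPKM in untreated libraries, 6.92 and 5.66 at 0.5 h, and 2.49 and 2.77 at 3 h. Pomgnt2, which extends the O-mannose glycan of dystroglycan, held 17.62 and 18.3 cRPKM in untreated libraries, 17.48 and 17.37 at 0.5 h, and 7.58 and 8.51 at 3 h. It was the most abundant of the 7. The sialyltransferase genes St6gal2 and St3gal1 were at 38% and 41.8%. B3gnt7, which acts on keratan sulfate chains, was at 40.6%, and Pigw, an enzyme of GPI anchor synthesis, at 47.6%.

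Of 105 glycosyl- and sulfotransferase genes tested, 21 (20%) were called lower and 3 (2.86%) higher at 3 h, against 6.84% and 8.71% of all genes. Leaving out the 5 members in that list, 16 of 100 (16%) were lower. The median log2 change was −0.31 over the list, beside −0.02 over all genes tested. B3galnt1, which makes globoside, held 17.25 and 18.82 cRPKM at 3 h and 28.35 and 29.26 untreated (log2 change −0.62 ± 0.07, edgeR adjusted p = 0.0101). Mgat4a and B3galt6 fell by 0.65 ± 0.09 and 0.77 ± 0.11 on the log2 scale (edgeR, adjusted p = 0.013 and 0.0134). The list lost all its calls without either untreated library and some without a 0.5 h library or 3 h replicate 2. Calls over all genes fell in those fits too. With the replicate block the counts were 46 lower and 5 higher, against 18.6% of all genes in each direction.

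Transporters numbered 7, at 27.8% to 48.2% of untreated at 3 h, and 3 of them belong to the Slc16 family of monocarboxylate transporters. Slc16a9 stood at 3.47 and 4.40 cRPKM in untreated libraries, 3.30 and 4.28 at 0.5 h, and 0.64 and 1.55 at 3 h. The 3 h libraries differed more than 2-fold from each other and both lay under all others. Slc16a6 held 15.53 and 15.68 cRPKM in untreated libraries, 13.32 and 14.33 at 0.5 h, and 5.55 and 6.24 at 3 h, with no overlap between groups. Slc16a14, an orphan of the family, held 14.15 and 17.04 cRPKM in untreated libraries, 13.6 and 14.98 at 0.5 h, and 5.98 and 5.41 at 3 h. Xkr7, related to the phospholipid scramblase Xkr8, was at 31.2% of untreated. Mfsd9, a carrier of the major facilitator superfamily, was at 45.2%, the lysosomal peptide transporter gene Abcb9 at 45.8%, and Slc25a29, a mitochondrial carrier of basic amino acids, at 48.2%.

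Cell adhesion, axon guidance and matrix genes numbered 11, at 28.1% to 49.8% of untreated, and included Pcdh1 and Cd47, the most abundant of all members. Pcdh1, a protocadherin, stood at 49.09 and 53.55 cRPKM in untreated libraries, 45.97 and 44.39 at 0.5 h, and 23.66 and 17.58 at 3 h. Cd47, a thrombospondin receptor that protects cells and synapses from phagocytes, held 36.65 and 34.79 cRPKM in untreated libraries, 33.77 and 30.44 at 0.5 h, and 19.01 and 15.84 at 3 h. Rtn4r, the Nogo receptor that limits axon growth, held 26.53 and 28.33 cRPKM in untreated libraries, 26.68 and 26.34 at 0.5 h, and 13.13 and 11.73 at 3 h. All 3 genes kept above 10 cRPKM at 3 h.

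Slitrk3, a postsynaptic adhesion gene of inhibitory synapses, stood at 16.3 and 20.63 cRPKM in untreated libraries, 15.61 and 17.76 at 0.5 h, and 7.89 and 8.42 at 3 h. Its relative Slitrk5 was at 49.8% of untreated at 3 h. Sema4b, a transmembrane semaphorin, was at 39.7%, and Lrtm2 and Lingo3, leucine-rich repeat proteins of the membrane, at 34.5% and 45.3%. Col15a1, a nonfibrillar collagen, held 5.26 and 3.55 cRPKM in untreated libraries, 7.17 and 4.15 at 0.5 h, and 1.29 and 1.19 at 3 h. The library numbered 1 exceeded that numbered 2 in the untreated and 0.5 h groups, while the 3 h libraries agree. Another collagen gene, Col19a1, was at 42.9%, and the matrix protease gene Adamts16 at 47.2%.

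Of 51 ephrin, semaphorin and plexin genes, 8 (15.7%) were called lower and 2 (3.92%) higher, against 6.84% and 8.71% of all genes. Without the member Sema4b 7 of 50 (14%) were lower. With the replicate block 23 of the list were lower and 4 higher, against 18.6% of all genes in each direction. Sema4d, an axon guidance ligand, held 7.14 ± 0.304 cRPKM at 3 h and 13.8 ± 0.919 untreated (SD, n = 2 each; log2 change −0.89 ± 0.10, edgeR adjusted p = 0.00818). None of the list was called without untreated replicate 1 or untreated replicate 2, 17 were lower without 3 h replicate 1, and 4 when 3 h replicate 2 or a 0.5 h library was left out. Of 56 collagen and laminin genes tested, the members Col15a1 and Col19a1 were the only ones called lower, and Col11a1 and Lamc1 were called higher (edgeR, adjusted p = 0.0103 and 0.0108). None of the 4 was called without untreated replicate 1 or untreated replicate 2, and leaving out any other library kept 1 of the lower calls. With the replicate block 6 genes of that list were lower and 11 higher.

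The members acting on RNA and translation numbered 8. Zc3h6, a CCCH zinc finger protein, stood at 2.92 and 3.27 cRPKM in untreated libraries, 2.90 and 3.31 at 0.5 h, and 0.61 and 1.00 at 3 h. Untreated and 0.5 h values were nearly the same, and 3 h values were 26.0% of untreated. Pabpc5, a poly(A)-binding protein, held 2.98 and 2.57 cRPKM in untreated libraries, 2.77 and 2.31 at 0.5 h, and 0.77 and 0.76 at 3 h. Transfer RNA genes of this class were Pars2, a mitochondrial prolyl-tRNA synthetase (34.0% of untreated at 3 h), Elac1, a nuclease of tRNA 3′ ends (35.7%), and Trmt1l, a methyltransferase relative (45.2%). Dhx34, a helicase of nonsense-mediated decay, was at 46.7%, the methyltransferase gene Bcdin3d at 45.9% and the splicing regulator gene Rbm11 at 47.8%.

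Transcription and chromatin members numbered 9, at 37.9% to 51.0% of untreated. Gtf2a1, which encodes the large subunits of the general factor TFIIA, stood at 10.9 and 10.11 cRPKM in untreated libraries, 11.1 and 10.0 at 0.5 h, and 3.42 and 4.54 at 3 h. Carf, a calcium-responsive factor that binds a Bdnf promoter, held 4.68 and 5.41 cRPKM in untreated libraries, 4.28 and 4.88 at 0.5 h, and 2.00 and 2.49 at 3 h. Corepressor genes were represented by Runx1t1 (39.6%), Rcor2 of the CoREST family (47.9%) and Zmynd8 (49.8%). Ikzf4 and Sall2, DNA-binding zinc finger factors that the symbol filter did not remove, were at 43.7% and 51.0%. Tspyl5 and Tspyl3, of the nucleosome assembly protein family, were at 42.1% and 47.4%.

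Metabolic, mitochondrial and peroxisomal members numbered 13 and were the class with the mildest median, 47.3%. H6pd, which makes NADPH inside the endoplasmic reticulum, was the lowest at 36.0%. Oxsm and Mcat, both enzymes of mitochondrial fatty acid synthesis, were at 39.0% and 50.5%. Mcat held 11.66 and 11.48 cRPKM in untreated libraries, 11.38 and 11.67 at 0.5 h, and 5.91 and 5.78 at 3 h, with library differences that were small beside the fall. Dguok, which salvages deoxyguanosine in mitochondria, was at 45.1%, and Pex26, a peroxisomal import factor, at 49.3%.

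Protein modification genes numbered 7, led by Senp8, the protease of NEDD8, at 31.8% of untreated, and including the ubiquitin ligase genes Mkrn3 (45.0%), Rnf165 (45.2%) and Trim62 (51.3%). Intracellular signalling and small GTPase genes numbered 12, at 33.1% to 50.8%, with the Rab GTPase activator gene Tbc1d30 at 35.0% and the lipid phosphatase gene Mtmr7 at 50.8%. Tbc1d30 held 12.31 and 12.34 cRPKM in untreated libraries, 11.98 and 11.01 at 0.5 h, and 4.32 and 4.30 at 3 h, among the tightest sets of values. Cytoskeletal and traffic genes numbered 9, at 32.5% to 47.9%. Synpo, the actin-binding protein of the spine apparatus, was at 37.0%, and Hook1, a dynein adaptor, at 45.5%. The DNA repair genes Mlh3 and Rad50 were at 41.9% and 51.5%.

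**Figure D2:**
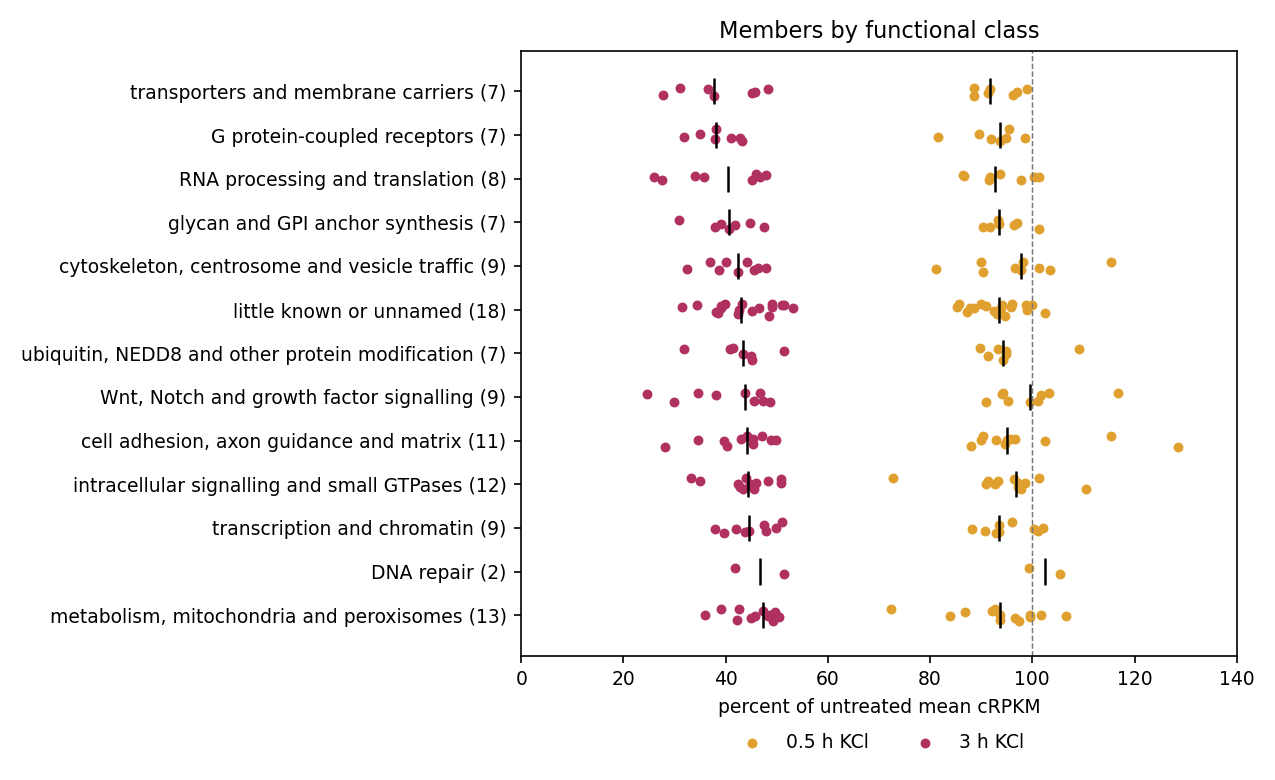
Mean level at 0.5 h (orange) and at 3 h (red) as a percent of the untreated mean for the 119 members with ample reads, by functional class, with the number of genes in parentheses; black lines are class medians. Class medians at 3 h run from 37.8% for transporters to 47.3% for metabolic genes, and class medians at 0.5 h from 91.6% to 102%.

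At 0.5 h the members were close to their untreated level, most of them a little under it. The 0.5 h mean was 94.8% of untreated at the median over 119 members, with quartiles of 91.3% and 98.8%. Over all genes at 2 cRPKM or more the median was 101%, with quartiles of 98.1% and 105%. The untreated libraries in these ratios are also those of the rule. The rule favours high untreated values, which by itself lowers these ratios. Of the 122, 92 lay between 90% and 110%, 21 between 80% and 90%, 4 lower and 5 higher. Xlr3c and ENSMUSG00000091640, which had few counts, are among the 4. The shares of all genes in these ranges were not counted. EdgeR called 0 members lower and 0 higher at 0.5 h (Benjamini-Hochberg adjusted p of 1 for each), and DESeq2 and the fit with the replicate block also called 0. Over all genes tested, 0.0% were called lower and 0.0377% higher. With no adjustment, edgeR put 2 of the 120 members tested under the 0.05 threshold as lower, Pnpla3 and Slc16a6, and 0 as higher. The share of all genes under that unadjusted threshold was not counted, so nothing is read from these 2.

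Both 0.5 h libraries lay below both untreated ones in 34 members (27.9%), against 6.35% of genes at 2 cRPKM or more. They lay above both in 6 members (4.92%), against 16.4%, and overlapped in 82 (67.2%), against 77.3%. The untreated libraries of this count are also those of the rule, which favours genes whose untreated libraries happened to read high. That alone places 0.5 h libraries below both more often and above both less often, so nothing is read from these shares. Xlr3c, on 1 read in each untreated library, is among the 34. The median 0.5 h level was 97.3% of untreated among libraries numbered 1 and 92.3% among those numbered 2.

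A few members stood apart at 0.5 h. Arrdc3, an alpha-arrestin that directs receptor traffic and degradation, held 36.59 and 32.46 cRPKM in untreated libraries, 22.79 and 27.44 at 0.5 h, and 8.34 and 14.55 at 3 h. Its 3 groups did not overlap, with 0.5 h at 72.7% and 3 h at 33.1% of untreated. Pnpla3, a lipase of lipid droplets, held 5.57 and 5.83 cRPKM in untreated libraries, 3.95 and 4.30 at 0.5 h, and 2.75 and 2.11 at 3 h. Its log2 difference at 0.5 h was −0.49 ± 0.17, and at 0.5 h it was at 72.4% of untreated. Map10, a microtubule-associated protein gene, and Sstr4 followed at 81.1% and 81.6%.

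At the other end, Col15a1 stood at 128% of untreated at 0.5 h and Nrarp at 117%. Cep57l1, a centrosomal gene, held 2.86 and 2.69 cRPKM in untreated libraries, 3.12 and 3.28 at 0.5 h, and 0.89 and 1.33 at 3 h. Adamts16 was likewise at 115% and Radil, an effector of the GTPase Rap, at 110%. None of these differences passed the test (edgeR, adjusted p = 1 for each). Nrarp, Cep57l1, Adamts16 and Radil had both 0.5 h libraries above both untreated ones, while those of Col15a1 overlapped.

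**Figure D3:**
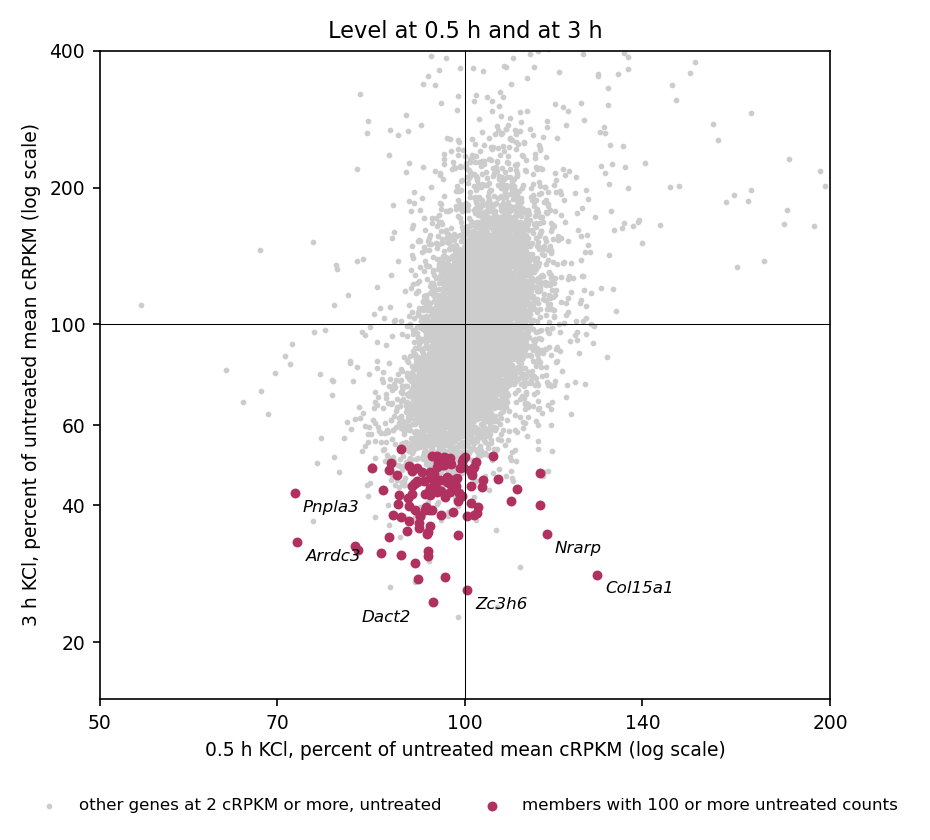
Mean level at 3 h against mean level at 0.5 h, each as a percent of the untreated mean (log axes), for 119 members (red) and 11161 other tested genes at 2 cRPKM or more untreated (grey; 59 more lie outside the axes). The members spread from 72.4% to 128% on the 0.5 h axis and sit at 53.2% or less on the 3 h axis by choice.

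The comparison of 3 h with 0.5 h uses the 3 h libraries that the rule required to be low, so its counts follow largely from the choice of members and nothing is read from them. EdgeR called 117 of the 120 members tested lower at 3 h than at 0.5 h, where 4.87% of all genes were called lower and 6.39% higher. Both 3 h libraries lay under both 0.5 h libraries in 120 of 122 members and in 38.7% of genes at 2 cRPKM or more. The median log2 change was −1.05 between 3 h and 0.5 h and −1.15 between 3 h and untreated. The members not called were Rbm11, Pnpla3 and Gpr45 (edgeR, adjusted p = 0.052, 0.0576 and 0.0669), and with the replicate block all 120 were called. Without 0.5 h replicate 1 or 0.5 h replicate 2, 0 members were called (and 0 genes over all), and 69 and 72 were called without untreated replicate 1 and untreated replicate 2.

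The coefficient of variation between the 2 libraries had a median of 6.43% in the untreated group, 6.58% at 0.5 h and 7.96% at 3 h. Over genes at 2 cRPKM or more the medians were 5.59%, 6.24% and 11.2%. The rule takes the higher 3 h library, which favours genes whose 3 h libraries agree. Untreated levels were moderate, with a median of 6.41 cRPKM over members against 13.9 over genes at 2 cRPKM or more. Across the 119 members the log2 ratio of 3 h to untreated and the untreated mean had a Spearman rho of 0.18, over values from the same libraries.

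Close relatives of members, chosen after the values were seen, stood on both sides of their untreated level at 3 h. Of the 14 Slc16 genes tested, 5 were called lower at 3 h, the 3 members with Slc16a13 and Slc16a7, and 1 higher. The riser was Slc16a1, the main lactate and pyruvate transporter of glia and vessels, with 41.27 and 34.25 cRPKM at 3 h and 16.96 and 14.98 untreated (log2 change 1.30 ± 0.16, edgeR adjusted p = 0.0102). Slc16a7, the neuronal lactate transporter, held 6.28 and 4.42 cRPKM at 3 h and 9.76 and 9.84 untreated (−0.81 ± 0.20, edgeR adjusted p = 0.0468). All 4 other alpha-arrestin genes were below untreated at 3 h: Txnip, whose symbol the rule left out, was at 10.1%, Arrdc2 at 49.0%, Arrdc4 at 50.2% and Arrdc1 at 69.7%, and edgeR called each lower but Arrdc1 (adjusted p = 0.0161, 0.0201, 0.0276 and 0.054).

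Sstr4 was the one somatostatin receptor called, at 31.9% of untreated. Sstr3 was at 45.9% (log2 difference −1.07 ± 0.39, edgeR adjusted p = 0.119) and Sstr2 at 102%, while Sstr1 held 28.24 and 17.93 cRPKM at 3 h and 13.6 and 12.28 untreated (log2 difference 0.90 ± 0.26, edgeR adjusted p = 0.0679). Adra2c was at 35.0% and the related Adra2a at 103% (log2 difference 0.10 ± 0.09, edgeR adjusted p = 0.462). Gpr12 was at 42.8%, whereas its relative Gpr3 rose to 7.12 and 6.36 cRPKM at 3 h, against 1.56 and 2.36 untreated (1.84 ± 0.32, edgeR adjusted p = 0.0212). Dact1 and Dact3 were at 110% and 76.5%, Amer1 and Amer2 at 93.3% and 96.8%, and none of the 4 was called. Slitrk1 fell to 60.3% of untreated (edgeR, adjusted p = 0.0134), and Slitrk2 was at 120% without a call. Differences between relatives were not tested. Of the 8 relatives called, 6 lower and 2 higher, 0 were called without untreated replicate 1 or untreated replicate 2. Without either 0.5 h library 3 were lower, and without 3 h replicate 2 Gpr3 was no longer called.

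**Figure D4:**
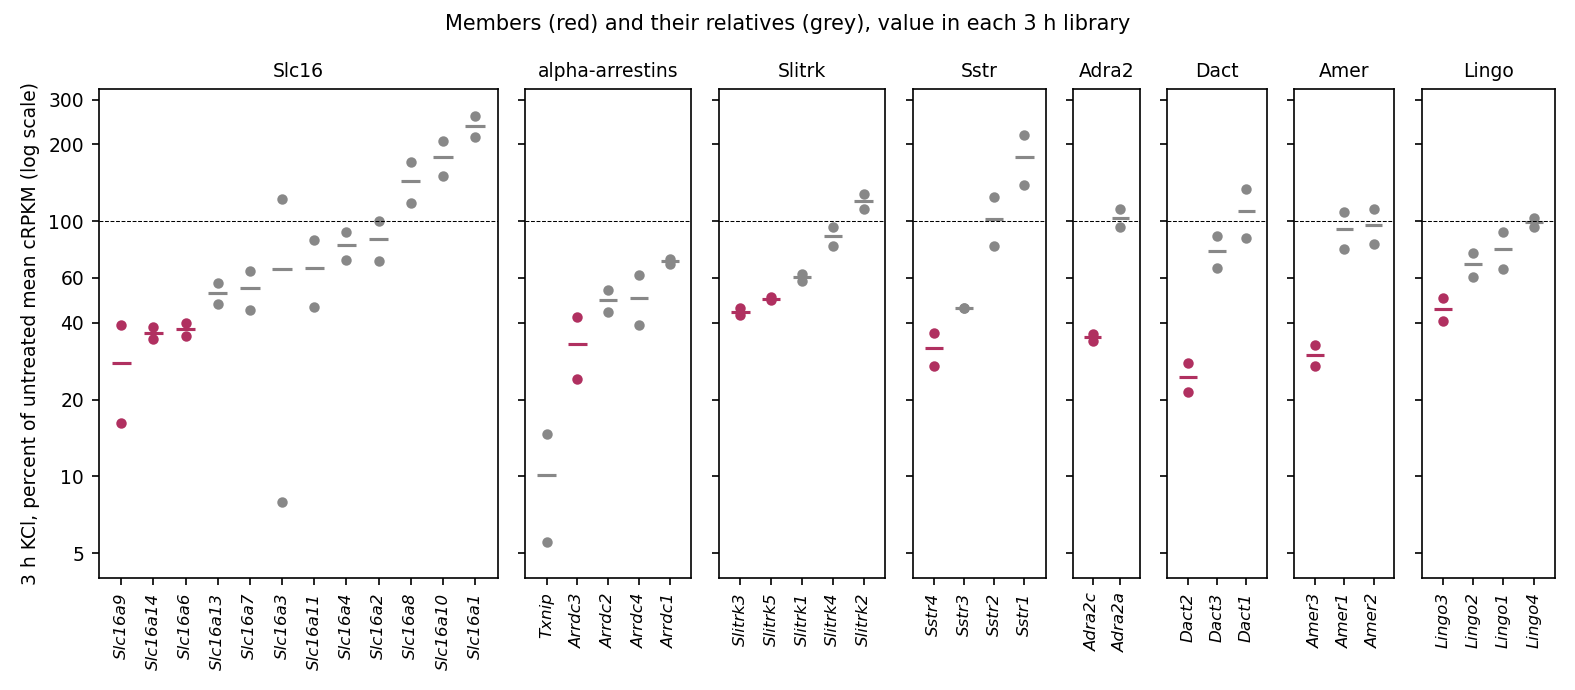
Level in each 3 h library (dots) and their mean (lines) as a percent of the untreated mean, on a log axis, for members (red) and relatives with at least 0.5 cRPKM in untreated neurons (grey). Within 1 family values differ widely, as with Slc16a9 at 27.8% and Slc16a1 at 236%.

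In gene structure the members had fewer exons than other genes. They had a median of 4 coding exons (118 genes with a value, in the transcript with the longest coding sequence), against 9 in the other genes at 2 cRPKM or more. The 48 genes left out by symbol, counted here among the other genes, also had a median of 4 (quartiles 3 and 4.25). The low median is therefore not particular to the members. A single coding exon was present in 32 of 118 members (27.1%) and in 629 of all 11138 such genes (5.65%). With 1 library left out of the rule, the share of members ran from 18.5% to 25.5%. The share was similar at each untreated level: 26.2% of members and 7.97% of other genes between 2 and 5 cRPKM, 25% and 6.92% between 5 and 10, and 30% and 4.09% between 10 and 60, the range that holds the most abundant member. Amer3, Sstr4, Adra2c, Gpr12, B3galt4, Chst12, Pomgnt2, Slitrk3 and Pabpc5 were among the 32. By class, single coding exons were found in 5 of 7 receptors and 4 of 7 glycan genes, but in 0 of 7 transporters. The coding sequences of such receptors are often free of introns.

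Genes outside the 122 differed by exon number too, in the share called lower at 3 h. Of tested genes that were not members, 10.6% of those with 1 coding exon were called lower, 8.32% with 2, 6.99% with 3 to 5, 5.54% with 6 to 10 and 5.26% with over 10. The share called higher ran from 8.51% to 10.6% with no such order. Among the members themselves, the log2 ratio of 3 h to untreated and the number of coding exons had a Spearman rho of 0.14 over 117 genes. A higher ratio is a shallower fall. Transcript length, 3′ UTR length and base composition were close to those of other genes: medians were 3207 and 3069 bases, 1106 and 1033 bases, and 52.2% and 50.5% GC. The pentamer ATTTA, found in unstable messages, occurred 1.45 times per kb of 3′ UTR in members and 1.36 times in other genes.

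**Figure D5:**
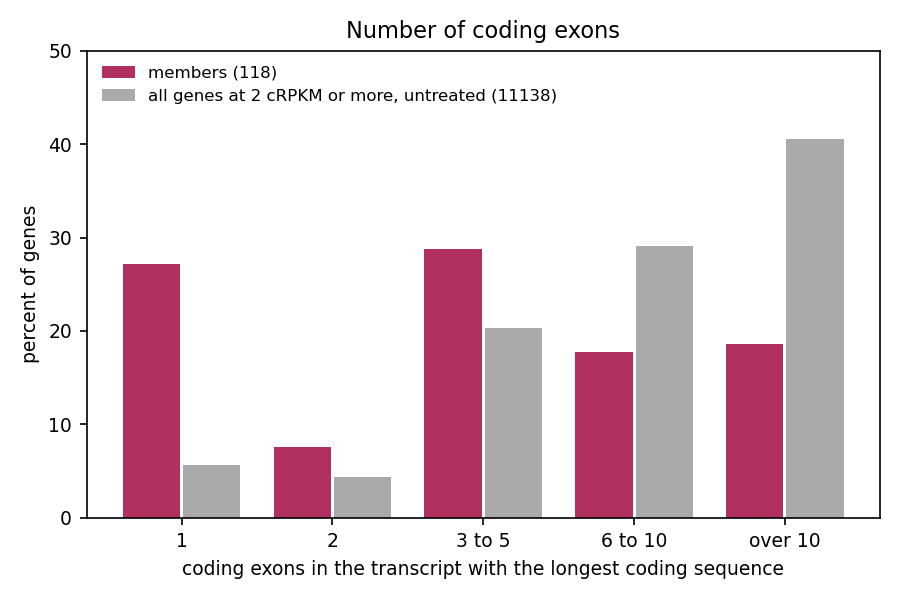
Percent of genes by number of coding exons, for 118 members (red) and all 11138 protein-coding genes at 2 cRPKM or more in untreated neurons (grey). Members exceed the others at 1 coding exon, 27.1% against 5.65%, and fall under them at over 10, 18.6% against 40.5%.

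RefSeq promoters were matched for 91 members, with 122 promoters between them. Those of 1 gene can overlap, as for Cd47, Dhx34 and Prrt3, so a single site can be counted more than once. The CREB palindrome TGACGTCA was in 2 of the 122 (1.64%), against 3.11% of promoters of genes at 2 cRPKM or more and 1.79% of all promoters. They were those of Pnpla3, at position −46 from the start base in the sequence shown, and Dguok, at position −4. The core TGACG, which also lies within the palindrome, was in 22.1% of member promoters, against 31.5% and 20.8%. The AP-1 motif TGANTCA was in 5.74%, against 4.41% and 7.81%, and the E-box CACGTG in 13.1%, against 10.2% and 7.15%. GGGCGG, of which the Dact2 promoter shown holds 3 copies, was in 61.5%, against 64.2% and 35.7%. TATAAA was in 6.56%, against 6.52% and 13.6%, and CCAAT in 37.7%, against 37.6% and 37.4%. These matches are letters within the 300 bases, counted on both strands, and not sites shown to be bound.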

How the data were processed

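RNA sequencing of 6 libraries was analysed. Per the submitters' processing notes reads were aligned with Bowtie to mm9; the version is not given in the sources used here. The RPKM value deposited by the authors (cRPKM) and the raw count deposited by the authors stand beside each gene, and 1114 listed genes have neither. In the 7690 genes that passed 2000 counts everywhere, cRPKM followed count and library total within 0.0061%. The kit, per the labels, does not mark strand, so a gene and its antisense partner cannot be told apart. At these totals the counting error is small beside the spread between libraries for genes with many counts. For members with few counts it is not. B3galt4 had 173 and 120 counts at 3 h, too few for the closeness of its libraries (coefficient of variation 0.88%) to be read.

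Identifiers were named with GENCODE M21 (20451 of 21553 genes), which also gave the gene structures; the deposited values carry no positions. Counts were tested with edgeR 4.0.16 (R 4.3.3): TMM scaling, a minimum count of 10, 1 model of the 6 libraries with a term for group alone, 3 residual degrees of freedom, Benjamini-Hochberg adjustment over 15895 genes and a threshold of 0.05; the common biological coefficient of variation was 19.2%. Alternatives were DESeq2 1.42.0, library totals, no count filter, a replicate block and leaving out each library. The programs were tested on simulated counts. The differences between replicates 1 and 2 correlated across genes with r = 0.81, 0.58 and 0.61 between pairs of groups. The replicate block therefore took the numbers to pair the samples, which the labels do not say. The main fit, with group alone, left this pairing out. The replicate block kept all 120 members called lower at 3 h.

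The members, 38 gene lists and 13 functional classes were chosen with earlier results of these data known. Named genes were the deepest falls, the most abundant members, up to 4 per class or list, the threshold neighbours, the extremes at 0.5 h, and up to 3 other genes per list by adjusted p; members given to complete a class were named after their values were seen.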

Additional observations from a re-analysis of the deposited data

Results flagged for a closer look

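EdgeR called 0 members at 0.5 h against untreated and 117 of 120 members lower at 3 h than at 0.5 h (Benjamini-Hochberg adjusted p under 0.05). The members were chosen for low 3 h libraries, which the second count uses again, so it describes the choice of members and does not test whether the KCl effects at both times differed.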

How the results depend on the processing

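Members called lower numbered 120 at 3 h against untreated, 0 at 0.5 h against untreated and 117 at 3 h against 0.5 h, and DESeq2, library totals, no count filter and the replicate block gave 120 each, 0 each and 116 to 120. Leaving out 1 library gave 3 to 116, 0 in each case and 0 to 114; the lowest counts came from fits that left 1 untreated or 1 0.5 h library, which is assumed to vary like the others. Of the 73 named members tested, 62 and 70 lost their call at 3 h without untreated replicate 1 and 2, and 1 to 8 without any other library; 3 of all members (Pnma2, Slc16a6 and Tbc1d30) kept it in all 6 cases. The number of members was 66 with a limit of 0.5, 216 with 0.6, 78 with an untreated mean of at least 5 cRPKM, 140 with at least 1, 100 with TMM-scaled values, 119 with the minimum of 100 counts (an alternative added after the data were seen), and 170 to 372 with 1 library left out of the rule. The share with 1 coding exon then ran from 18.5% to 25.5%, and from 23.1% to 30.2% under the other settings of the rule, all added after the data were seen. The median log2 ratio at 3 h was −1.20, with a range of −1.24 to −1.16 with 1 library left out and −0.95 with a pseudocount of 1 cRPKM; at 0.5 h it was −0.08, with a range of −0.10 to −0.03. Scaling by library totals moved the median of all genes at 3 h to −0.08. With 2 libraries a group, the spread and not the depth limits most of these values.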

Other observations

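Lists of genes around the members, chosen with earlier results known, moved in both directions at 3 h. Among genes linked to FoxO factors and starvation, edgeR called 3 of 34 lower, Arrdc3 among them, and 6 higher (8.82% and 17.6%, against 6.84% and 8.71% of all genes; 0 and 1 without untreated replicate 1 or untreated replicate 2, and 7 and 11 with the replicate block, which called 18.6% of all genes in each direction). Irs2, an adaptor of the insulin receptor, rose to 44.7 ± 0.028 cRPKM at 3 h, against 15.2 ± 0.113 in untreated neurons (SD, n = 2 each; log2 change 1.62 ± 0.09, edgeR adjusted p = 0.00318). Of 53 FGF and tyrosine kinase receptor genes, 10 (18.9%) were lower, Fgf18 and Gfra2 among them, and 6 (11.3%) higher, with 15 and 11 under the replicate block. Without these 2 members 8 of 51 (15.7%) were lower. Fgfr2, an FGF receptor, rose to 62.06 and 115.28 cRPKM at 3 h, against 13.82 and 14.98 untreated (2.67 ± 0.27, edgeR adjusted p = 0.00731). None of that list was called without untreated replicate 1 or untreated replicate 2, 5 and 4 were lower without 0.5 h replicate 1 and 0.5 h replicate 2, and 3 without 3 h replicate 2. Gpr19, an orphan receptor, rose to 40.2 ± 1.88 cRPKM at 3 h, against 13.1 ± 0.042 untreated (SD, n = 2 each; 1.68 ± 0.10, edgeR adjusted p = 0.00318), and, like Irs2, kept its call in every fit that left out 1 library.

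In the Gprin family, whose products interact with G proteins, the member Gprin3 was at 44.8% of untreated at 3 h. Gprin2, under the floor of the rule, held 0.38 and 0.42 cRPKM at 3 h and 1.57 and 1.37 untreated (log2 change −1.83 ± 0.30, edgeR adjusted p = 0.0184, with no call without either untreated library or without 3 h replicate 2). Gprin1 held 56.07 and 37.36 cRPKM at 3 h and 74.34 and 69.38 untreated (adjusted p = 0.159). Of 206 genes named Tmem, 25 (12.1%) were called lower and 11 (5.34%) higher, against 6.84% and 8.71% of all genes, with 52 and 24 under the replicate block, against 18.6% of all genes in each direction. The count of lower calls was 0 without either untreated library, 7 without either 0.5 h library and 12 without 3 h replicate 2.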
